A study of Mus musculus with 4 samples.

Results

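The genes described here are 10 that the transcription factor NF-kB switches on after tumor necrosis factor (TNF) binds its receptor: Tnfaip3, Tnip1, Tnip3, Traf1, Birc3, Cflar, Ier3, Sod2, Tnfaip2 and Icam1. They were taken by name, all 10 were found among the 24422 named genes of the files, and all 10 had enough counts to be tested with 13136 genes in all. Each gene is represented by the RefSeq transcript with the highest mean raw count. The libraries came from RAW 264.7, a mouse macrophage cell line, grown at 5.5 mmol/L glucose and used between passages 3 and 6. The empty vector group (2 libraries, EV1 and EV2) stably carried the plasmid pcDNA 3.1(+), and the Dnm3os group (2 libraries, D1 and D2) stably carried Dnm3os, a long noncoding RNA; the labels name no added TNF or other stimulus in either group. Whether each group is 1 clone or a pool, and whether its libraries came from separate cultures, is not given in the sources used here, so p-values measure only the spread between these libraries, which may be technical.

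NF-kB sits in the cytoplasm bound to IkB proteins until a signal such as TNF leads to their destruction, after which it enters the nucleus and activates its targets. Some of these targets shut the signal down again, among them Tnfaip3, which encodes A20, an enzyme that edits ubiquitin chains. Tnip1 and Tnip3, grouped here with Tnfaip3 as feedback genes, encode the A20-binding proteins ABIN1 and ABIN3. Whether ABIN3 limits the signal in these mouse cells was not tested. Other targets keep the cell alive while TNF receptor 1 is engaged. Among them are the inhibitor-of-apoptosis protein encoded by Birc3, the adaptor Traf1 and Cflar, which encodes the caspase-8 inhibitor FLIP. In macrophages, cells that both make and sense TNF, these genes are widely used as readouts of NF-kB activity.

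The promoters of these genes are shown because a kappaB site, the DNA word that NF-kB reads, is the feature by which such targets are linked to the factor. The 250 bases before the start site were searched on both strands for the 10-base kappaB consensus, with no other motif searched, and sequences are from RefSeq with build GRCm38.p6. Of the 10 genes, 5 held at least 1 match in at least 1 of their windows, against 4.46% of the 27025 genes with such a window (3.90% of 32851 windows). Each stretch is written 5′ to 3′ on the gene's own strand, with the letters covered by a match in capitals:
Tnip3, chr6:65590332-65590365, plus strand: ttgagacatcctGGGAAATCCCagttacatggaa
Tnfaip3, upstream match, chr10:19015514-19015547, minus strand: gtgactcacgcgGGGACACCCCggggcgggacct
Tnfaip3, match next to the start, chr10:19015411-19015434, minus strand: ggaatttccatcGGAAATCCCCct
Tnip1, chr11:54962975-54963010, minus strand: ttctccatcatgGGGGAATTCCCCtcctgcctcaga
Sod2, chr17:13007744-13007777, plus strand: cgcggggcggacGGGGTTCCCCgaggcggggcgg
Ier3, chr17:35821609-35821642, plus strand: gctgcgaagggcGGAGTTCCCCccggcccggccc

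The matches began 54 bases before the start in Tnip3, 125 and 12 bases in Tnfaip3, 58 bases in Tnip1, 83 bases in Sod2 and 92 bases in Ier3. In Tnip3, Tnip1 and Sod2 the letters read as a match on either strand, and in Tnip1 4 overlapping matches fill the 12 capitals. The 3 feedback genes thus all carried a match in this window. Traf1, Birc3, Cflar, Icam1 and Tnfaip2 had none there, which says only that these letters are not in this window. A kappaB site that departs from the consensus at any letter would not be found by this search. The whole window of Traf1, the gene with the widest difference below, and that of Tnip3, the next widest, are printed for comparison:
Traf1, chr2:34961773-34962022, minus strand: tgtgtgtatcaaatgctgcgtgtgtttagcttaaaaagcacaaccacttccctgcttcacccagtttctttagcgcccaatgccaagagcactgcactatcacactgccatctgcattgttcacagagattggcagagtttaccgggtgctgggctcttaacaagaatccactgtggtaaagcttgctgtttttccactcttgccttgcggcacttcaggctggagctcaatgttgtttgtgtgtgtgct
Tnip3, chr6:65590148-65590397, plus strand: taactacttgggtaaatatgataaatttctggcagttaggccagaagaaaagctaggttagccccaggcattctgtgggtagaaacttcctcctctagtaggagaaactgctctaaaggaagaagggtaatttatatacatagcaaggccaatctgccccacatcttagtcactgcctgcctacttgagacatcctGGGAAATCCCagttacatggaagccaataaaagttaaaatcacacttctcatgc

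The summed counts over all transcripts were 48480628 to 65610942 per library, a sum in which overlapping isoforms can count a read more than once. With 1 transcript per gene, as used here, they were 29329201 to 39640782. Dnm3os had 0 counts in both empty vector libraries and 208 and 260 counts in the Dnm3os libraries. All 9 macrophage markers were detected, with a summed level of 9284 and 9461 CPM (counts scaled to a common library size) in the empty vector group and 10163 and 10659 CPM in the Dnm3os group; 3 of the 9 were called higher and 2 lower. Markers of other cell types were near 0: the summed level of 5 fibroblast, 5 epithelial and 5 B cell genes was at most 0.0755 CPM in any library, with 3 of 5 at 0 throughout in each list. The 5 endothelial genes summed to 0.327 and 0.454 CPM in the empty vector group and to 1.02 and 0.907 CPM in the Dnm3os group, with 1 of them, Kdr, tested and called higher. In the order EV1, EV2, D1 and D2, Kdr had 8, 11, 21 and 22 counts, Cdh5 3, 2, 6 and 5, Tek 1, 2, 3 and 4 and Pecam1 1, 1, 0 and 0, and Tie1 was at 0; the part of these genes in the results was not tested. The 5 T cell genes summed to 5.42 to 7.07 CPM, nearly all of it from the kinase gene Lck, with Cd3e and Cd3g at 0.

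Of the 10 genes, Traf1, Tnip3 and Sod2 rose in cells carrying Dnm3os, none fell, and 7 did not pass the test (two-sided quasi-likelihood test of edgeR, with p adjusted by Benjamini-Hochberg over all genes tested and a threshold of 0.05). In bulk RNA, more cells with a transcript and more of it per cell cannot be told apart. Over all 13136 genes, the same rule called 6.48% higher and 5.77% lower, 12.2% in either direction. For the 0 lower, edgeR had 1 gene, Icam1, with p below 0.05 before adjustment, and neither DESeq2 nor limma-voom called any (0 each). The median log2 fold change of the 10 genes was 0.04, beside 0.00054 over all genes tested, and their log2 fold changes ran from -0.10 to 0.68. For 7 of the 10 genes, 5 higher and 2 lower, the groups were free of overlap, as they were for 51.2% of all genes tested (26.2% higher and 25.0% lower).

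**Figure D1:**
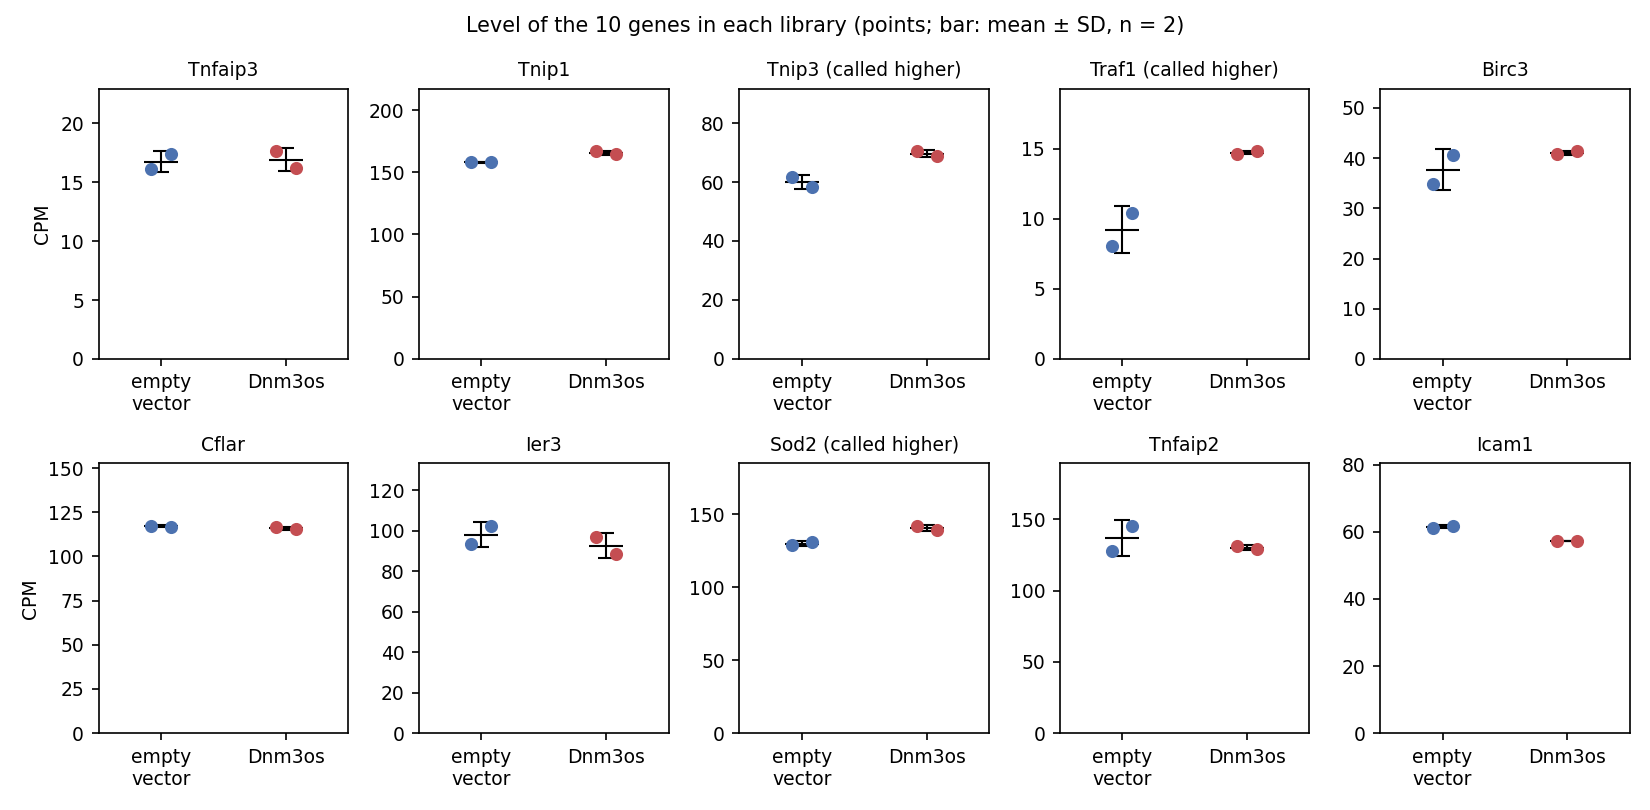
Level of each of the 10 genes in CPM (vertical axis, from 0) in the 2 empty vector libraries (blue) and the 2 Dnm3os libraries (red), with black bars for the mean and SD. The Traf1 points of the Dnm3os group sit at 14.7 and 14.8 CPM, above 8.05 and 10.4 CPM in the empty vector group, while most other genes show points at nearly the same height in both groups.

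Among the feedback genes, Tnip3 rose, and Tnip1 and Tnfaip3 did not pass. Tnip3, which encodes the A20-binding protein ABIN3, had 61.8 and 58.3 CPM in EV1 and EV2 and 70.4 and 68.8 CPM in D1 and D2. Every Dnm3os library was above every empty vector library, by an amount that exceeds the gap within either group. The group means were 60.0 ± 2.47 and 69.6 ± 1.18 CPM (SD, n = 2), a 1.16-fold rise (log2 fold change 0.21 ± 0.04 SE, 95% interval 0.12 to 0.30, adjusted p = 0.0015 by edgeR). The call held in all 16 other settings, with log2 fold changes from 0.17 to 0.25 and adjusted p from 6.25e-05 to 0.0394.

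Tnip1, which encodes ABIN1, had 157.9 and 158.2 CPM in EV1 and EV2 and 166.9 and 164.5 CPM in D1 and D2. The groups did not overlap, but the difference of 0.07 ± 0.03 on the log2 scale did not pass (adjusted p = 0.187 by edgeR), and its 95% interval of 0.0034 to 0.13 holds values up to a 1.10-fold rise. A pseudogene model, Gm12230, overlaps the span of Tnip1 in RefSeq, and whether its reads enter these counts was not tested. Tnfaip3, the gene of A20 itself, had 16.1 and 17.4 CPM in EV1 and EV2 and 17.6 and 16.2 CPM in D1 and D2. Its groups overlapped, with a log2 fold change of 0.01 ± 0.08 (adjusted p = 0.950 by edgeR) and a 95% interval from -0.14 to 0.17. The sign of the Tnfaip3 estimate turned without EV1 (-0.05) and without D1 (-0.05), neither of them called. Of the 5 genes with kappaB letters printed above, Tnip3 and Sod2 rose, and Tnfaip3, Tnip1 and Ier3 did not pass.

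Among the survival genes, Traf1 rose and Birc3, Cflar and Ier3 did not pass. Traf1, an adaptor that joins TRAF2 and the inhibitor-of-apoptosis proteins at TNF family receptors, had 320 and 367 counts, or 8.05 and 10.4 CPM, in the empty vector libraries and 430 and 507 counts, or 14.7 and 14.8 CPM, in the Dnm3os libraries. The Dnm3os libraries lay close together and both were above the empty vector libraries, which differed from each other 1.29-fold. The means of 9.24 ± 1.68 and 14.7 ± 0.124 CPM (SD, n = 2) gave a 1.60-fold rise (log2 fold change 0.68 ± 0.10 SE, 95% interval 0.46 to 0.90, adjusted p = 0.000131 by edgeR). The call held in all 16 other settings, but its size rested on the empty vector libraries: the log2 fold change was 0.50 without EV1 and 0.87 without EV2. A lncRNA model, Gm52552, overlaps the span of Traf1 in RefSeq, and the strand setting of the counting is not given, so reads from the 2 could not be told apart where they overlap.

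Birc3, the ubiquitin ligase cIAP2, had 34.9 and 40.6 CPM in EV1 and EV2 and 40.8 and 41.4 CPM in D1 and D2. EV2 sat next to the Dnm3os libraries and EV1 stood apart below them. The log2 fold change was 0.13 ± 0.06 (adjusted p = 0.257 by edgeR, 95% interval -0.0093 to 0.26). It was 0.24 without EV2, where it passed (adjusted p = 0.00582 by edgeR), and 0.01 without EV1. Birc2, its neighbour, encodes the related protein cIAP1; whether the genes share reads was not tested, so both counts are uncertain to that extent.

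Cflar, the caspase-8 inhibitor, had 117.5 and 116.9 CPM in EV1 and EV2 and 116.4 and 115.4 CPM in D1 and D2. Its libraries were nearly level, with a log2 fold change of -0.02 ± 0.03 (adjusted p = 0.851 by edgeR). The 95% interval of -0.09 to 0.05 reaches a 1.04-fold rise at its upper end. Ier3, an early response gene that limits apoptosis, had 93.5 and 102.5 CPM in EV1 and EV2 and 97.0 and 88.2 CPM in D1 and D2. Its groups overlapped, and the log2 fold change of -0.08 ± 0.05 did not pass (adjusted p = 0.409 by edgeR, 95% interval -0.20 to 0.03). Without EV1 Ier3 was called lower (-0.15, adjusted p = 0.00617 by edgeR), while the estimates were -0.02 without EV2, -0.15 without D1 and -0.01 without D2, none of these called.

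Among the effector targets, Sod2 rose by a small amount. Sod2, the mitochondrial superoxide dismutase, had 128.9 and 131.1 CPM in EV1 and EV2 and 142.4 and 139.3 CPM in D1 and D2. The groups were clear of each other, with replicates within 1.02-fold in either group. The means of 130.0 ± 1.55 and 140.8 ± 2.23 CPM (SD, n = 2) gave a 1.08-fold rise (log2 fold change 0.12 ± 0.03 SE, 95% interval 0.05 to 0.18, adjusted p = 0.0177 by edgeR). Its call was lost by DESeq2 (adjusted p = 0.184), with isoforms summed (adjusted p = 0.0645 by edgeR) and without EV1, D1 or D2. The log2 fold change was 0.10 without EV1, 0.10 without D1 and 0.13 without D2, and ran from 0.10 to 0.13 in all 16 settings. Only 1 transcript of Sod2 was listed, so summing isoforms left its own counts as they were.

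Icam1, the adhesion molecule to which leukocyte integrins bind, had 61.3 and 61.8 CPM in EV1 and EV2 and 57.2 and 57.3 CPM in D1 and D2. The Dnm3os libraries were lower without overlap, but the log2 fold change of -0.10 ± 0.04 did not pass (adjusted p = 0.134 by edgeR, unadjusted p = 0.0240, 95% interval -0.19 to -0.02). Tnfaip2, a gene named for its induction by TNF, had 128.0 and 145.6 CPM in EV1 and EV2 and 131.2 and 128.9 CPM in D1 and D2. Here EV2 alone stood apart, above the other libraries. The log2 fold change was -0.07 ± 0.06 (adjusted p = 0.576 by edgeR, 95% interval -0.22 to 0.07). It turned to 0.02 without EV2 and was called lower without EV1 (-0.17, adjusted p = 0.00108 by edgeR), so that 2 of the 10 genes, Tnfaip2 and Ier3, were called lower in that setting.

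**Figure D2:**
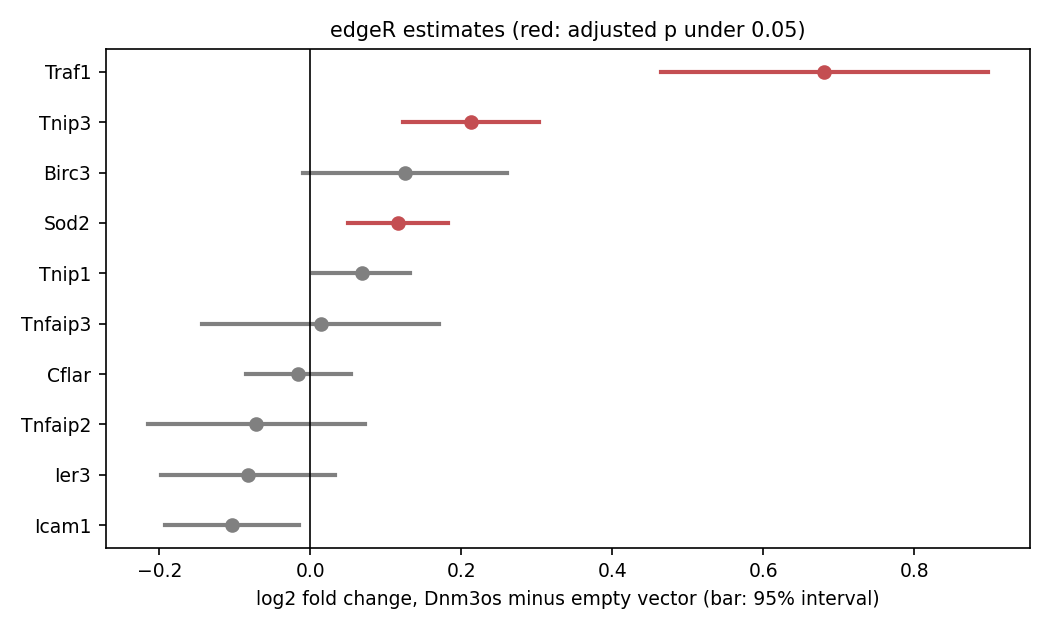
Log2 fold change of each gene (Dnm3os minus empty vector, horizontal axis) with its 95% interval, ordered by size; red marks an adjusted p under 0.05. Traf1 lies at 0.68 and Tnip3 at 0.21, Sod2 at 0.12 is called with Birc3 at 0.13 beside it is uncalled and has a wider interval, and 4 genes lie below 0.

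**Figure D3:**
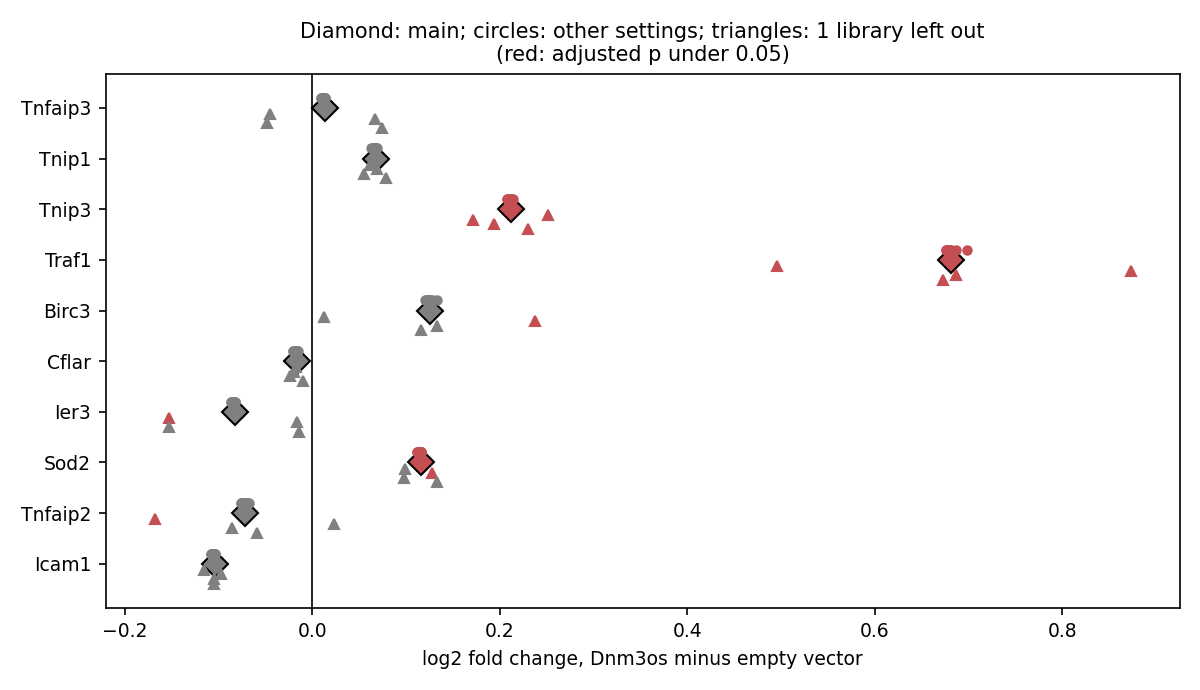
Log2 fold change of each gene (horizontal axis) as reported (diamond), in the other settings (circles) and with 1 library left out (triangles); red marks an adjusted p under 0.05. Circles fall on or beside the diamonds, whereas triangles spread from 0.50 to 0.87 for Traf1, from 0.01 to 0.24 for Birc3 and from -0.17 to 0.02 for Tnfaip2.

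Levels can be set side by side between genes once divided by transcript length. Here they are in CPM per kilobase, with the length of the GENCODE transcript linked to each RefSeq record. The annotation of the counts is not given, so the counted lengths may differ from these. The order of genes with close levels is therefore uncertain. In the empty vector group Ier3 was at the top with 86.7 ± 5.61 CPM per kilobase (SD, n = 2), followed by Tnip1 with 53.2 ± 0.0741. Cflar (37.1 ± 0.135) and Tnfaip2 (36.4 ± 3.32) came next and did not differ beyond their spread. The Cflar value used NM_207653, with 3163 bases and 4671 counts in EV1. Another Cflar transcript, NM_001289704, had 6572 bases and 4591 counts in EV1, so the place of Cflar in this order depends on the transcript taken. Icam1 (24.3 ± 0.164), Sod2 (22.2 ± 0.265), Tnip3 (15.9 ± 0.655) and Birc3 (14.1 ± 1.52) followed. Traf1 (3.97 ± 0.721) and Tnfaip3 (3.79 ± 0.200) were lowest, with overlapping values. The level of A20 transcript was therefore below that of both of its binding partners in this line, for which no stimulus is named.

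In the Dnm3os group the order of levels was the same at the top, with Ier3 at 81.9 ± 5.48 and Tnip1 at 55.7 ± 0.571 CPM per kilobase. Cflar (36.6 ± 0.221, by the same transcript) and Tnfaip2 (34.6 ± 0.419) no longer overlapped. By these lengths Sod2 (24.0 ± 0.380) stood above Icam1 (22.6 ± 0.0149), the reverse of their order in the empty vector group. Other lengths could change which of them is above in either group. Tnip3 was at 18.5 ± 0.313, Birc3 at 15.4 ± 0.150, Traf1 at 6.34 ± 0.0535 and Tnfaip3 at 3.83 ± 0.226 CPM per kilobase, so that Traf1 was now clear of Tnfaip3.

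Isoforms were listed for 4 of the 10 genes and held overlapping counts, so they are not independent. The 5 transcripts of Tnip1 gave log2 fold changes of 0.07 each when every transcript was tested on its own, the 2 of Tnfaip3 gave 0.01 each, and the 2 of Traf1 held identical counts. Cflar was the exception in level: the transcript NM_009805 had 634 and 548 counts in EV1 and EV2 and 510 and 551 in D1 and D2, against 4671, 4117, 3415 and 3945 for NM_207653. The count of the former was 13.6 and 13.3% of that of the latter in EV1 and EV2 and 14.9 and 14.0% in D1 and D2. Its log2 fold change was 0.09 ± 0.07 (adjusted p = 0.558 by edgeR over 20938 transcripts), beside -0.02 ± 0.03 for NM_207653, and neither passed.

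The rest of the pathway was read from 9 lists with 95 genes in all. Of the 90 tested, 20 were called higher, 3 lower and 67 did not pass, with a median log2 fold change of 0.03. Over all 13136 genes tested, 6.48% were called higher and 5.77% lower, the shares to set beside each list count below. The lists were chosen with earlier results of these data known, so their counts only describe these genes. Tnf and both of its receptor genes passed the test. Tnf rose 1.25-fold from 173.6 and 175.1 to 221.6 and 212.7 CPM (adjusted p = 1.7e-07 by edgeR). Tnfrsf1b, the TNF receptor 2 that signals through TRAF2 and TRAF1, rose 1.98-fold from 24.1 and 24.6 to 47.4 and 49.1 CPM (adjusted p = 7.61e-12 by edgeR). Tnfrsf1a, the death-domain receptor 1, fell from 120.7 and 116.3 to 104.6 and 113.2 CPM (log2 fold change -0.12 ± 0.04, adjusted p = 0.0434 by edgeR), a call lost in 5 of its 15 other settings, among them without EV1 (-0.10) and without D1 (-0.07). The 15 other genes of the receptor complex, from Tradd and Traf2 to the IkB kinase genes, did not pass.

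Of the 11 NF-kB subunits and IkB proteins, 1 rose, 0 fell and 10 did not pass (median 0.07; edgeR had 0 lower with p below 0.05 before adjustment, DESeq2 and limma-voom 0 called). Nfkbiz, an atypical nuclear IkB protein, was the one that rose, from 18.9 and 20.3 to 30.9 and 31.0 CPM (log2 fold change 0.66 ± 0.06, adjusted p = 6.73e-08 by edgeR). Nfkbia, the classical inhibitor IkB-alpha and itself a rapid NF-kB target, had 109.5 and 114.4 CPM in EV1 and EV2 and 107.9 and 105.0 CPM in D1 and D2 (-0.07 ± 0.04, adjusted p = 0.233 by edgeR). Rela, the subunit p65, had a log2 fold change of 0.03 ± 0.04 (adjusted p = 0.773 by edgeR).

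Among 14 genes of ubiquitin editing and chain removal, the enzymatic setting in which A20 and the ABIN proteins act, 0 rose, 1 fell and 13 did not pass (median 0.0083). For the 0 higher, edgeR had 1 gene with p below 0.05 before adjustment, DESeq2 and limma-voom 0 called. Tax1bp1, an adaptor that brings A20 to its substrates, fell from 148.4 and 158.8 to 140.9 and 137.6 CPM (-0.14 ± 0.03, adjusted p = 0.00768 by edgeR), a call lost by DESeq2 and without EV2 (-0.09), D1 (-0.16) or D2 (-0.12). Of 9 genes of the death machinery below TNF receptor 1, 1 rose, 1 fell and 7 did not pass (median 0.07). Mlkl, the pore-forming protein of necroptosis, fell from 69.5 and 73.9 to 62.4 and 62.8 CPM (-0.19 ± 0.04, adjusted p = 0.00311 by edgeR; not called without EV2 or D2). Casp8, the protease that FLIP restrains, was just inside the threshold (0.12 ± 0.04, adjusted p = 0.0487 by edgeR) and kept its call in 4 of its 15 other settings, and lost it when any 1 of EV1, EV2, D1 and D2 was removed (0.11 to 0.12).

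Of 8 other survival genes induced by NF-kB, 4 rose, 0 fell and 4 did not pass (median 0.18; edgeR had 0 lower with p below 0.05 before adjustment, DESeq2 and limma-voom 0 called). Those that rose were the BCL2 relatives Bcl2a1d (0.46 ± 0.06), Bcl2a1a (0.45 ± 0.06) and Bcl2a1b (0.36 ± 0.06), as log2 fold changes, and the kinase gene Pim1 (0.34 ± 0.07). The 3 Bcl2a1 genes are near-identical copies, so their counts are not independent and remain uncertain. Pim1 was not called without D1 (0.29). Of the 4 other genes tested with TNFAIP in their names, Tnfaip8 (0.23 ± 0.06) and its relative Tnfaip8l2 (0.31 ± 0.08) rose and 2 did not pass (median 0.14). DESeq2 called neither; Tnfaip8 was lost without EV2 (0.19) or D1 (0.16), and Tnfaip8l2 without D1 (0.32) or D2 (0.30).

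Of 6 tested genes of the ICAM family and its receptors, 3 rose, 0 fell and 3 did not pass (median 0.51), with 1 gene, the integrin chain Itgb2, lower with p below 0.05 before adjustment by edgeR and 0 called lower by DESeq2 or limma-voom. The alpha chains Itgam (1.01 ± 0.04), Itgal (0.96 ± 0.13) and Itgax (0.79 ± 0.10), each a partner of Itgb2 in a receptor for ICAM1, rose, while Itgb2 had a log2 fold change of -0.07 ± 0.03 (adjusted p = 0.200 by edgeR). Of 10 tested genes of superoxide and peroxide handling, 2 rose, 0 fell and 8 did not pass (median -0.01; edgeR had 3 lower with p below 0.05 before adjustment, DESeq2 and limma-voom 0 called). Prdx5 (0.26 ± 0.04) and Prdx1 (0.13 ± 0.02), peroxidases that remove the peroxide that superoxide dismutases make, rose, and the cytosolic Sod1 had -0.05 ± 0.03 (adjusted p = 0.380 by edgeR) beside 0.12 for Sod2.

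Among 10 other inflammatory NF-kB targets, 5 rose, 0 fell and 5 did not pass (median 0.35; edgeR had 0 lower with p below 0.05 before adjustment, DESeq2 and limma-voom 0 called). By adjusted p the leading ones were the chemokine Ccl2 (0.73 ± 0.03), the cytokine Il1b (1.67 ± 0.19), the nitric oxide synthase Nos2 (2.21 ± 0.21) and the chemokine Cxcl10 (0.30 ± 0.08). With a replicate block Nos2 was not called (adjusted p = 0.148 by edgeR). Cxcl10 was not called by DESeq2, with isoforms summed, or without EV2 (0.16), D1 (0.30) or D2 (0.30). The count of 5 was 3 with isoforms summed, 6 by limma-voom and 7 with the replicate numbers crossed. It also changed, in either direction, when 1 library was left out. Of Traf1, Tnip3, Sod2 and their 7 fellow genes, Traf1 (0.68) had a log2 fold change near that of Ccl2, and the other 9 were at 0.21 or less.

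**Figure D4:**
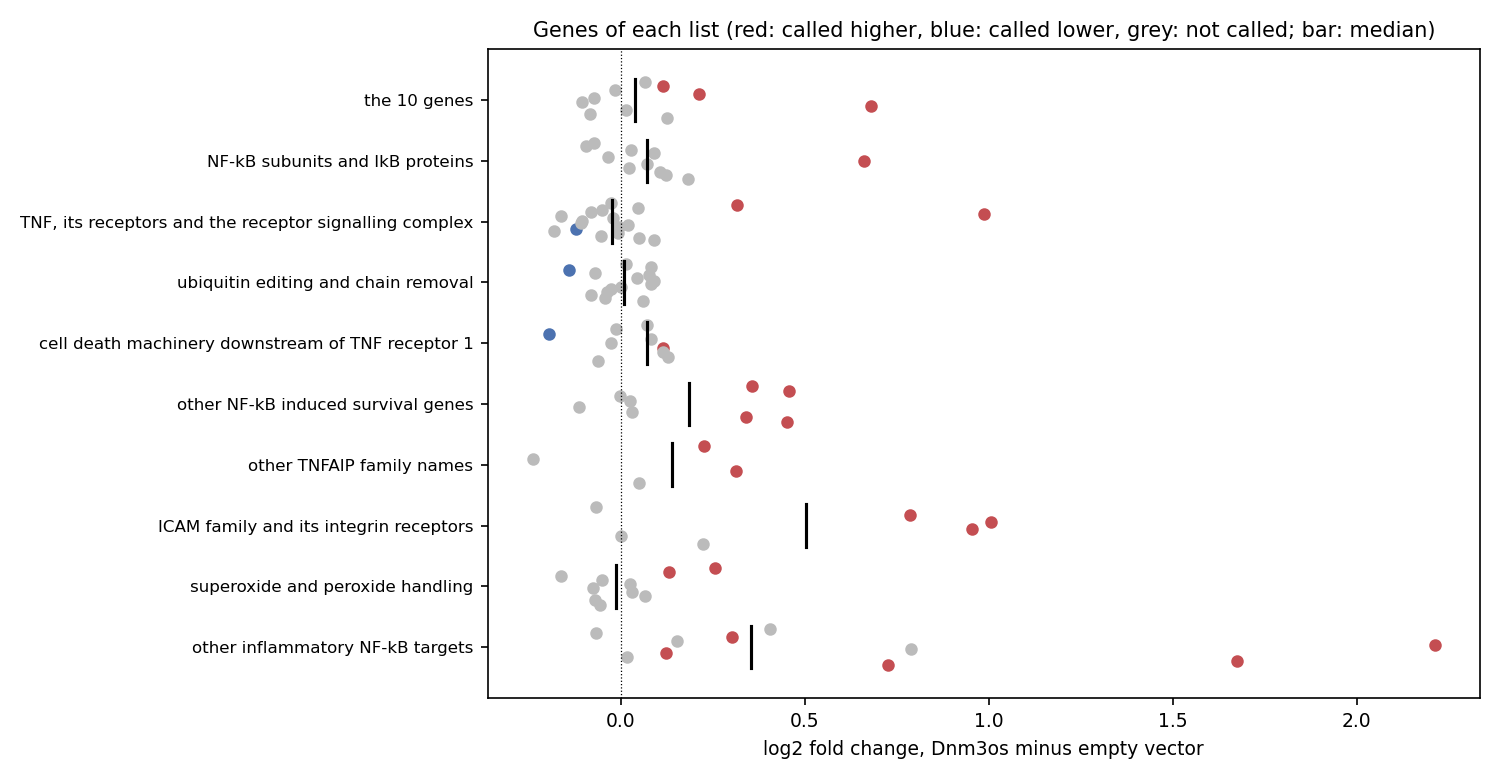
Log2 fold change (Dnm3os minus empty vector, horizontal axis) of the 10 genes and of each tested gene in the 9 pathway lists, 1 point per gene; red marks genes called higher, blue genes called lower, and the bar the median of a list. Points of the receptor complex and ubiquitin lists gather near 0 (medians -0.02 and 0.0083), while the inflammatory targets reach 2.21.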

How the data were processed

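Poly(A) RNA of 4 libraries was sequenced on a HiSeq 2500 after a TruSeq RNA kit, per the labels' protocols. The submitters' processing notes name TopHat, Bowtie2, DESeq2 and the build mm9, with no roles; for the counter, annotation and strand setting the sources used here give nothing. The deposited raw counts are whole reads per RefSeq transcript (35786), and the deposited normalized signal is the raw count times 1 constant per library, per the file headers and values; it entered only an alternative. Names came from RefSeq (35499 transcripts) and GENCODE (178); 109 unnamed ones, with 0.246 to 0.276% of the counts, were left out. Of 24422 genes, 6123 had several transcripts.

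After filterByExpr and TMM scaling (0.9971 to 1.0031), genes were tested with edgeR 4.0.16 in R 4.3.3 (glmQLFit, robust; SE is the size of the log2 fold change divided by the root of F). The fit was tested on simulated data. Alternatives used DESeq2 1.42.0, limma 3.58.1 (voom), other scalings and filters, summed isoforms, a replicate block and each library left out. Settings chosen after seeing the data were the authors' scaling constants, crossed replicate numbers and every transcript tested on its own. Members and lists were chosen with earlier results of these data known. Named genes were the members, Dnm3os, Tnf, Tnfrsf1a, Tnfrsf1b, Nfkbia, Rela and Bcl2a1b, and up to 4 called genes per list by adjusted p; Itgb2, Sod1, Birc2 and the marker genes were named after their values were seen. Promoter sequences are of GRCm38.p6, another build than mm9, and no coordinates were converted.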

Additional observations from a re-analysis of the deposited data

How the results depend on the processing

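With 1 of 2 libraries left out, its partner is assumed to vary like the libraries of the other group; the cause of the changes below was not tested. Of the 10 genes, 2 to 4 were called higher with 1 library left out and 0 to 2 lower; the 2 lower came without EV1. DESeq2 and summed isoforms called 2 higher, and every other setting with all 4 libraries called 3 higher and 0 lower. Traf1, Tnip3, Tnip1, Cflar and Icam1 kept their direction and their side of the threshold in all 16 settings. Sod2 was called in 11 of 16. The log2 fold change of Tnfaip2 reversed without EV2, within a range of -0.17 to 0.023 with 1 library left out, and that of Tnfaip3 without EV1 (-0.046) and without D1 (-0.048), within a range of -0.048 to 0.075. Over all genes, with 1 library left out, 434 to 802 were called higher and 372 to 784 lower, against 851 and 758; DESeq2 called 398 higher and 359 lower. Of the pathway genes, 15 to 21 were higher and 1 to 2 lower with 1 library left out, and DESeq2 called 1 lower, against 20 and 3.

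In single lists, the 1 receptor complex gene lower was 0 by DESeq2, by limma-voom and without EV1 or D1, and 2 with crossed numbers. The 1 ubiquitin gene lower was 0 by DESeq2 and without EV2 or D1 or D2. Of the death machinery, the 1 higher was 0 in 11 settings and the 1 lower was 0 without EV2 or D2. The 2 TNFAIP genes higher were 0 by DESeq2 and without D1, and 1 without EV2 or D2. The 0 peroxide handling genes lower were 1 without EV2, and the 1 NF-kB subunit or IkB gene higher was 2 with crossed numbers.

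The labels number the libraries of each group, but nothing says that a number marks a shared culture. Deviations of same-numbered libraries from their group means had r = -0.25 over 8917 genes of at least 10 CPM. A replicate block called 825 genes higher and 751 lower, with 3 and 0 of the 10 genes, and changed no call among the 10. Crossing the numbers gave 1058 and 949 genes, with 3 and 0 of the 10. At these depths the widest 95% interval of the 10 genes was that of Traf1.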

Other observations

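Of the tested genes with a promoter window, the 10 genes included, 523 (5.18%) held the kappaB consensus within 250 bases before a start. Of these, 48 (9.18%) were called higher and 45 (8.60%) lower, beside 616 (6.43%) higher and 547 (5.71%) lower of the 9577 genes without a match. The median log2 fold change was 0.0052 with a match and 0.00062 without. Calls were thus more frequent in both directions among genes with a match, as a description of these genes that was not tested. Tested genes without a promoter window were left out, and the genes with and without a match were not compared in level.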
